A study of Mus musculus with 4 samples.

Results

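The measurements described here are those of 10 genes of glutathione metabolism and NRF2-linked detoxification in mouse epidermis: Gclc and Gclm, which make glutathione, Gpx2, Gstm1 and Gsta4, which spend it, Txnrd1 and Srxn1 of the thioredoxin branch, the quinone and aldehyde enzymes Nqo1 and Aldh3a1, and the haem-degrading enzyme Hmox1. They were taken from the gene table by symbol, and all 10 were found among its 32479 genes. Back skin of C57BL/6N female mice at postnatal day 19 was dissociated, and single-cell whole-transcriptome libraries were made from 4 mice, 1 library each. The sample labels call the 2 control mice WT. In the study's general definition of its groups, controls were CerS4fl/fl without the Cre transgene (K14Cre-). The 2 CerS4epi-/- mice were by that definition CerS4fl/fl with it (K14Cre+). Under the study's definition all 4 thus carried the floxed alleles, and the labels name no treatment. The Cre driver is the keratin 14 promoter, which does not single out one keratinocyte lineage: bulge, upper follicle, gland and interfollicular epidermis (IFE) are all targeted, and effects within a class cannot be told apart from those of its neighbours. The study asked how loss of this sphingolipid enzyme alters the states of these cells, and the comparison made here is the level of the 10 genes by cell class and genotype.

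NRF2 is a transcription factor that the adaptor Keap1 hands to a Cul3 ubiquitin ligase for destruction. Oxidants and electrophiles modify Keap1, NRF2 escapes, and with small Maf proteins it binds antioxidant response elements near genes that make glutathione, reduce peroxides and quinones, and conjugate reactive molecules. In skin these enzymes protect against oxygen, light and reactive lipids, and glutathione and thioredoxin also set the thiol state of the cornifying layers.

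Promoters were searched for the core of the antioxidant response element, TGACNNNGC, on either strand in the 1000 bases before the annotated start in the mouse genome build GRCm39. A match was found for 3 of the 10 genes, Aldh3a1, Txnrd1 and Gclm, against 28.2% of 21757 protein-coding promoters. Within 250 bases of the start the core stood before Txnrd1 and Gclm, against 9.7% of promoters. The matches are shown because they are the places in these promoters where the letters of the element occur, written along the plus strand, on which all 3 genes lie, with the 9 bases of the core in capitals.
Aldh3a1, chr11:61098825-61098853, 549 bases before the start: aggagccccgTGACAGAGCagttgtgggc
Txnrd1, chr10:82694632-82694660, 371 bases before the start: caactatttgGCAGGGTCAcagccagtgc
Txnrd1, chr10:82694938-82694966, 65 bases before the start: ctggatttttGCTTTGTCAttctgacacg
Gclm, chr3:122039062-122039090, 54 bases before the start: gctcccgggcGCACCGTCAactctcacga
The Aldh3a1 match ran with the gene and the other matches against it. The core of the xenobiotic response element, GCGTG, which the aryl hydrocarbon receptor binds, was present within 1000 bases of the start for 8 of the 10 genes, against 54.8% of promoters, and the Aldh3a1 promoter held 5 matches. The starts used for Aldh3a1, Txnrd1 and Gsta4 lie inside longer annotated gene spans. A match is a description of letters, and its absence says nothing of the factor.

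Total counts per library were 42619084 and 48497481 in the controls and 53106317 and 39231945 in the CerS4epi-/- mice. Barcodes below 1200 counts, or with over 20% of their counts mitochondrial, were dropped, which left 8480 and 9086 control cells and 9017 and 7567 CerS4epi-/- cells. The mitochondrial limit removed 68 and 91 control barcodes and 363 and 316 CerS4epi-/- barcodes. A barcode sequence occurred in more than 1 library in 328 cases, against 493 that random draws of barcodes would give. The deleted gene was checked first: in sebaceous gland-like cells Cers4 stood at 2832 and 3968 CPM (counts per 1000000 counts) in the controls and at 289 and 432 CPM in the CerS4epi-/- mice, so it was lower but not absent. Over all cells its ranges overlapped, and T cell-like cells, which keratin-14-Cre should not reach, held 115 and 76.8 against 102 and 127 CPM.

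Cells were clustered without the 10 genes and without the further genes of the pathway, and clusters were named from marker lists. Outer bulge-like cells numbered 33 and 27 in the controls and 185 and 208 in the CerS4epi-/- mice, with all 10 listed outer bulge markers above 20 CPM. Their 10 leading genes, with Gpx2 first, held 1 outer bulge marker, Lhx2, and 1 inner bulge marker, Krt6a. The 200 inner bulge-like cells held all 5 of their markers. Infundibulum-like cells, of the upper follicle, came as 3 clusters led by Krt79, Klk10 and Slurp1. Sebaceous gland-like cells numbered 12 and 2 in the controls and 27 and 34 in the CerS4epi-/- mice, too few for a test. A basal cluster of 3466 cells, led by Fst and Sostdc1 beside Aldh3a1, scored on IFE basal markers, but none of those stood among its 10 leading genes. That also held for 1 IFE basal-like and 2 IFE differentiated-like clusters, which kept their names, so setting this cluster apart for its leading genes was a choice made after they were seen. It is called Fst/Sostdc1 basal-like here. The IFE differentiated-like class joins keratinized-like and other differentiated clusters, and Langerhans cell-like and T cell-like clusters were found as well. Another 67 cells, in a cluster led by Tnc, Krt24 and Ccn2, stayed unnamed and are in no class.

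Each of the 10 genes had its highest level in 1 of 5 places: the outer bulge, the gland, the Krt79 infundibulum, the Fst/Sostdc1 basal cells or the keratinized layer. Because the classes were built from the same cells, the levels between classes are given without a test. They are CPM of the summed counts of a class in a mouse, and each gene is compared only with itself.

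Gclc, the catalytic subunit of glutamate-cysteine ligase, which performs the rate-limiting step of glutathione synthesis, lies at chr9:77661797-77701770. Its level over the 4 mice averaged 106 CPM in outer bulge-like cells, 3.10 times the IFE basal-like level. The next class, the inner bulge-like cells, lay at 83.6 CPM, and the ranges of these classes overlapped, so their order is not settled. The outer bulge was highest in 2 of 4 mice, the mean over the controls was highest in the gland, at 110 CPM, and in other settings the inner bulge or the T cell-like cells came out highest. Gclm, the modifier subunit of the same enzyme, lies at chr3:122039126-122065061 and averaged 109 CPM in outer bulge-like cells, 4.57 times its IFE basal-like level. Gland cells, at 103 CPM, did not differ from the outer bulge beyond their spread, and in other clusterings the gland came out highest. Over 44 sums of class and mouse the levels of both subunits had a Pearson correlation of 0.80, the highest of any pair among the 10 genes. In Gclm 6.45% of the counts lay in values per gene and barcode that were not whole numbers. Reads shared with another position give such values, so the levels of Gclm carry that uncertainty.

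Gpx2, a selenium-containing glutathione peroxidase that reduces hydroperoxides, lies at chr12:76839107-76842326 and had its highest level in the bulge. Outer bulge-like cells held 54.6% of its counts while making up 1.33% of the cells. Of those counts 834 were from CerS4epi-/- mice and 20 from controls. The controls gave 130 counts in all, 52 of them in inner bulge-like and 45 in Klk10 infundibulum-like cells. In the CerS4epi-/- mice the Klk10 cells held 422 of 1436 counts. Over all 4 mice the outer bulge-like cells averaged 330 CPM. Inner bulge-like cells followed at 149 CPM, and in all 4 mice the outer bulge was above the inner. The Klk10 infundibulum-like cells were next in both genotypes, with 48.4 and 57.9 CPM in the controls and 76.7 and 103 CPM in the CerS4epi-/- mice. Everywhere else the gene was near 0: IFE basal-like cells averaged 0.904 CPM, and no count was found in the 75 gland cells, which allows up to 12.03 CPM in the controls and 3.27 CPM in the CerS4epi-/- mice (3 counts, counting error only).

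Gstm1, a mu-class glutathione transferase that conjugates electrophiles, lies at chr3:107919380-107925380 and was highest in the Krt79 infundibulum-like cells of every mouse, with a mean of 884 CPM. The Fst/Sostdc1 basal-like cells followed at 439 CPM, and both stood apart from every lower class in each genotype. In IFE basal-like cells the mean was 143 CPM, and there the value is close to that of free RNA: barcodes of 1 to 100 counts, which hold no cell, gave 113 to 149 CPM, and T cell-like cells 130 to 183 CPM. Counts of Gstm1 can also be shared with its near-identical mu-class neighbours. By the measure given for Gclm, 0.0293% of them lay in values that were not whole. That measure misses shared reads whose values came out whole, so it does not give the amount of sharing. Gsta4, an alpha-class transferase that acts on the lipid aldehyde 4-hydroxynonenal, lies at chr9:78090056-78117763 and gave only 216 counts in all 34150 cells. Its highest level, 44.6 CPM, was in the gland, followed by T cell-like cells at 14.4 CPM.

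Txnrd1, the cytosolic thioredoxin reductase, lies at chr10:82669785-82733546, and 70.8% of its counts came from IFE keratinized-like cells, which were 8.69% of the cells. Their mean was 277 CPM, 5.58 times that of the next class, the gland. With the mice summed, the keratinized-like cluster led by Lce1c held 616 CPM and the one led by F3 105 CPM. Srxn1, sulfiredoxin, which restores overoxidized peroxiredoxins, lies at chr2:151947436-151957687. It was highest in the gland when all mice were averaged, at 24.6 CPM, but this order held in only 2 of 4 mice, both CerS4epi-/-. In the controls its leading class was the keratinized layer, at 12.8 ± 0.498 CPM (SD, n = 2), which overlapped with several follicle classes.

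Nqo1, a quinone reductase, lies at chr8:108113835-108129934 and was low throughout but uneven, with 19.9 CPM in the Fst/Sostdc1 basal-like cells, 15.9 CPM in the inner bulge and 7.03 CPM in IFE basal-like cells, down to 0.368 CPM in control and 0.263 CPM in CerS4epi-/- keratinized-like cells and no count in control gland or T cell-like cells. The first of these ranges overlapped in the controls. Aldh3a1, an aldehyde dehydrogenase best known as a main protein of the cornea, lies at chr11:61098363-61109247. It averaged 607 CPM in the Fst/Sostdc1 basal-like cells, which held 45.6% of its counts, and 3.69 times less in the next class, the Krt79 infundibulum. Hmox1, which opens the haem ring and is a common readout of oxidant stress, lies at chr8:75820241-75827217. It was highest in IFE keratinized-like cells, with 90.4% of its counts and 362 CPM there. That class joins clusters of unlike level. With the mice summed, the cluster led by Lce1c held 1053 CPM in 1116 cells, and the one led by F3 24.1 CPM in 1846 cells. Among the other classes the Klk10 infundibulum, at 56.7 CPM, came next.

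**Figure D1:**
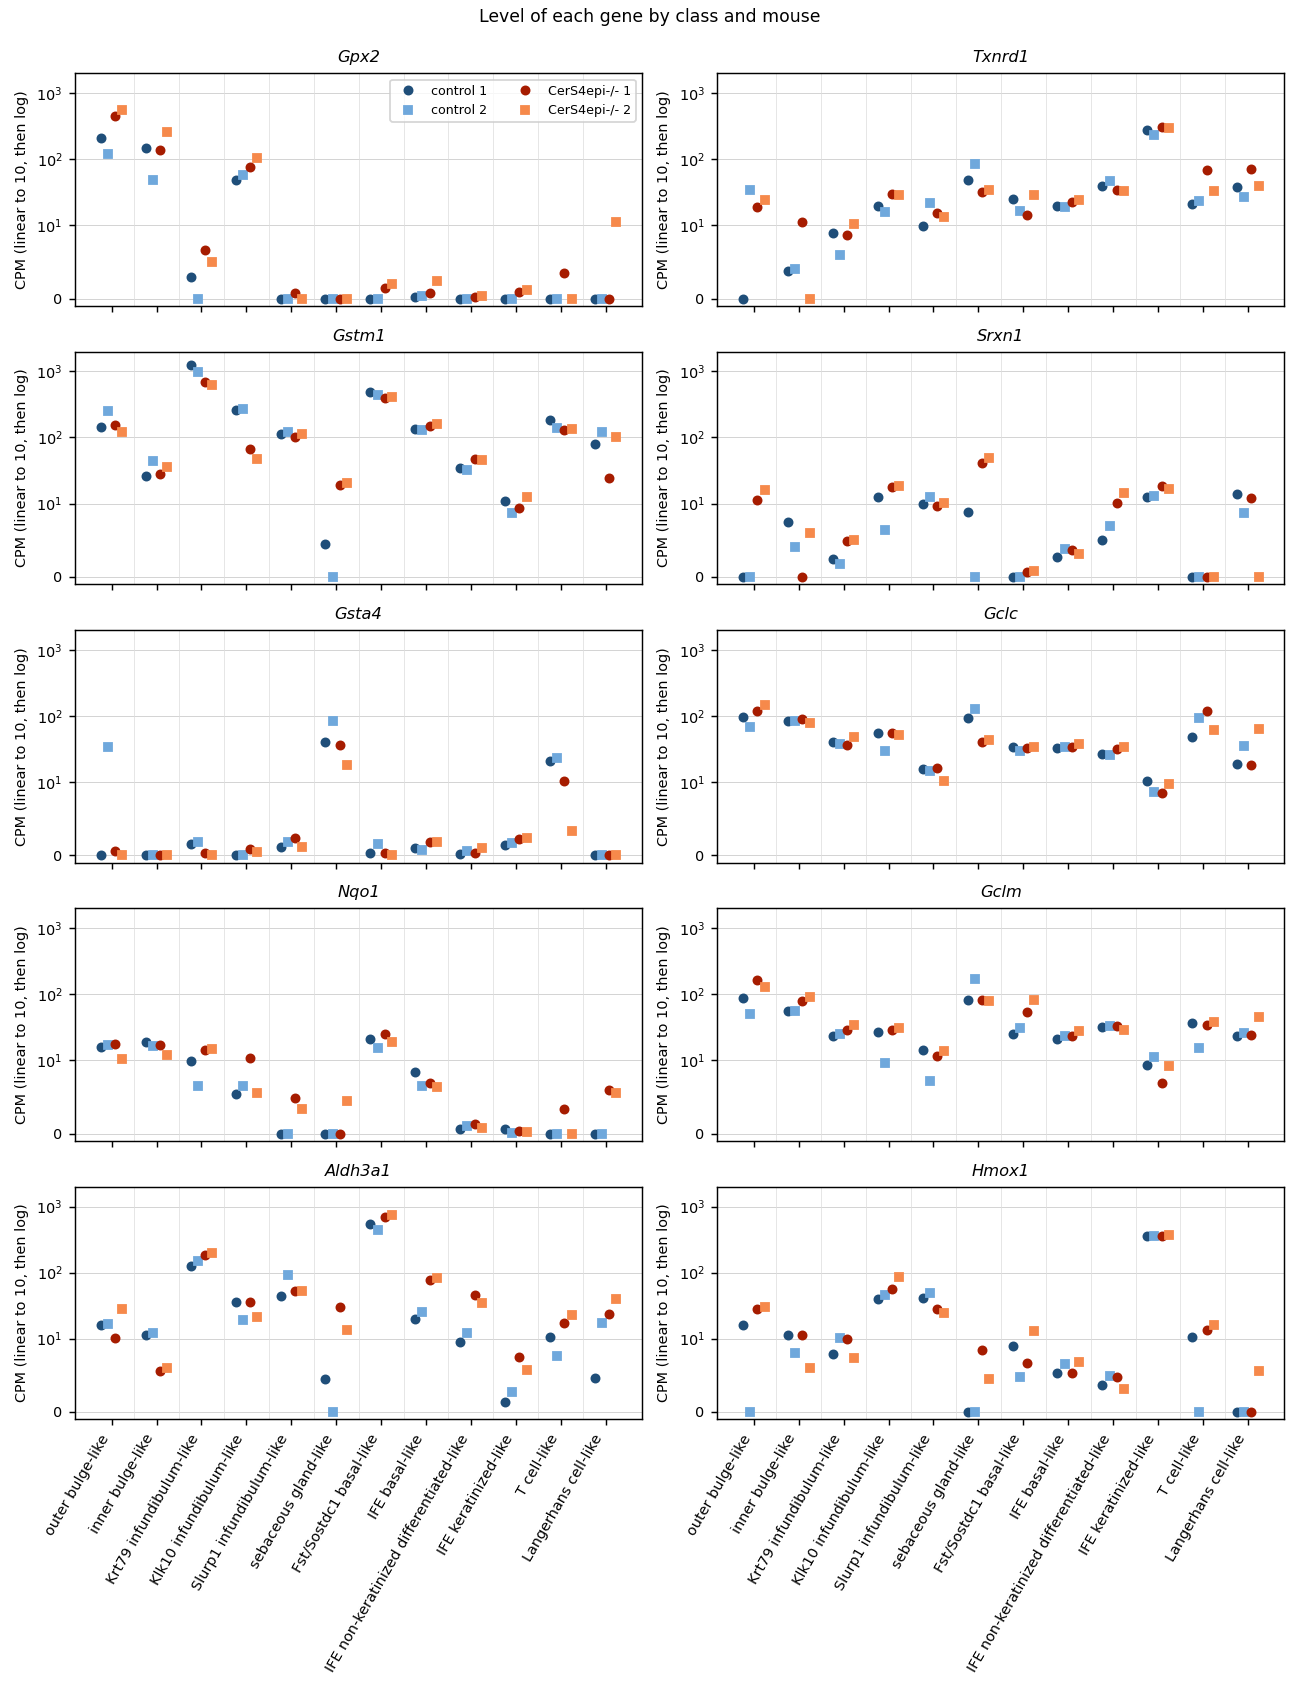
Level of each of the 10 genes in CPM (vertical axes, linear to 10 and logarithmic above) in 12 cell classes (horizontal axis), with 1 point for each of 2 control (blue) and 2 CerS4epi-/- (red) mice. Gpx2 stands out in the bulge, Gstm1 in the Krt79 infundibulum, Aldh3a1 in the Fst/Sostdc1 basal cells, and Txnrd1 and Hmox1 in the keratinized cells.

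In the outer bulge-like cells Gpx2 was higher in the CerS4epi-/- mice, and no other member passed the test. Its level was 206 and 118 CPM in the controls, from 13 and 7 counts, and 448 and 550 CPM in the CerS4epi-/- mice. Both CerS4epi-/- values lay above both controls. edgeR's quasi-likelihood test on sums per mouse, with Benjamini-Hochberg adjustment over all genes tested, gave a log2 fold change of 1.77 ± 0.31 (SE) and an adjusted p of 0.013. Of 6 members tested here 1 passed, against 2.37% of the 6000 genes tested. The controls gave few counts here, 1 in all for Hmox1 and 2 for Txnrd1. Hmox1 thus entered the test through the CerS4epi-/- sums. Txnrd1 was 0 to 33.7 CPM in the controls and 19.1 to 24.0 CPM in the CerS4epi-/- mice. Gclm stood at 87.1 and 50.5 against 167 and 131 CPM, with groups that did not overlap, a log2 fold change of 1.17 ± 0.44 and an adjusted p of 0.23. Gclc stood at 95.1 and 67.3 against 118 and 145 CPM, again without overlap, at an adjusted p of 0.40. In this class the groups did not overlap for 49.3% of all genes.

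The cells of this cluster also differed in make-up between the genotypes. The summed outer bulge markers were 6085 and 4240 CPM in the controls and 3262 and 2576 CPM in the CerS4epi-/- mice. In the inner bulge-like cells the same markers were 3168 and 2471 against 3573 and 3246 CPM, above this cluster in both CerS4epi-/- mice. Inner bulge markers in this cluster stood at 1790 and 3119 against 5319 and 10428 CPM, and infundibulum markers at 6909 and 7034 against 13307 and 17799 CPM. Median counts per cell were 1780 and 1814 in the controls and 3250 and 3348 in the CerS4epi-/- mice. The part of these differences in the Gpx2 result was not tested. Without the control mouse replicate 2 the Gpx2 estimate was 1.51 with an adjusted p of 0.080, so the call rests on that mouse. It passed in all 13 other settings that gave a value, with estimates from 1.03 to 2.01. In other runs of the clustering these cells did not stand alone: with Leiden seeds 2 to 5 a single cluster took in 99.3 to 100% of them, and they were 46.4 to 58.2% of that cluster. After each cell was thinned to 1200 counts, 21.2% and 14.8% of the control cells held a Gpx2 count. In the CerS4epi-/- mice 34.1% and 40.9% did. No thinned T cell-like cell of any mouse held one, but without thinning those of CerS4epi-/- replicate 1 held 1 count. Barcodes of 1 to 100 counts held 0 and 1.69 CPM of Gpx2 in the controls and 12.4 and 14.4 CPM in the CerS4epi-/- mice. The part of free RNA in the Gpx2 results of this class and of the infundibulum was not tested.

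The inner bulge-like cells gave no call among the 3 members that could be tested, against 1.17% of 3669 genes by edgeR. Gpx2 there was 149 and 48.5 CPM in the controls and 135 and 261 CPM in the CerS4epi-/- mice, and the groups overlapped. Gclm was 56.0 and 56.6 against 79.0 and 91.4 CPM, a log2 fold change of 0.55 ± 0.40 with an adjusted p of 0.70. Gclc was 82.1 and 84.9 against 90.3 and 77.1 CPM, with overlapping groups. At an unadjusted p under 0.05, 1 of the 3 members passed, Gpx2, and DESeq2 called none.

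For the sebaceous gland-like cells, whose controls are 14 cells, values are given with no test and with exact Poisson intervals on the pooled counts, which cover counting error only. Gclc was lower in the CerS4epi-/- mice in both libraries, at 93.1 and 127 against 40.4 and 42.6 CPM, or pooled 96.3 CPM (95% interval 61.7 to 143) against 41.4 CPM (29.3 to 56.9). Srxn1 lay at 8.86 and 0 CPM in the controls, from 2 counts in all, and at 40.4 and 49.3 CPM in the CerS4epi-/- mice, or pooled 8.02 CPM (0.971 to 29.0) against 44.7 CPM (32.1 to 60.7). These intervals do not touch, but they hold no spread between mice. Control 1 gave 225655 and control 2 gave 23692 of the total control counts in this class. Such intervals were not made for all genes, so no share over all genes stands beside them. Other genes moved in these cells: infundibulum markers summed to 1418 and 760 against 2786 and 3481 CPM and the stress genes to 14056 and 11775 against 8158 and 6121 CPM, while the gland markers stood at 6880 CPM in the 2-cell control and at 12648 to 13467 CPM in the other mice. Their part in these values was not tested. Gclm, at 81.9 and 169 against 81.6 and 78.9 CPM, and Gsta4, at 39.9 and 84.4 against 36.1 and 17.9 CPM, had pooled intervals that overlapped.

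In the infundibulum-like cells 5 members rose and 1 fell of 9 tested, against 14.2% of the 11517 genes tested that passed in either direction and 8.27% that passed as higher. The median log2 fold change of the 9 was 0.59, against 0.01 over all genes. Gstm1 fell, while Gpx2, Nqo1, Srxn1, Txnrd1 and Gclm rose. Hmox1, Gclc and Aldh3a1 did not pass.

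The fall of Gstm1 was the firmest of these. It stood at 787 and 706 CPM in the controls and 420 and 358 CPM in the CerS4epi-/- mice, with no overlap, for a log2 fold change of -0.86 ± 0.11 and an adjusted p of 0.00062. The 3 clusters differed. In the Klk10 cluster it was 256 and 273 against 67.0 and 47.0 CPM, a log2 fold change of -2.05 ± 0.18 with an adjusted p of 1.9e-06. Other genes moved with it in that cluster: inner bulge markers summed to 1973 and 1956 against 3383 and 5229 CPM, outer bulge markers to 1965 and 1901 against 1375 and 1115 CPM, Fst was 816 and 752 against 88.4 and 49.0 CPM, and 7 of 16 stress genes fell. Their part in the Gstm1, Gpx2 and Hmox1 results of the cluster was not tested. In the Krt79 cluster, where the gene is most abundant, it was 1233 and 977 against 693 and 634 CPM, at -0.71 ± 0.12 and an adjusted p of 0.0042, which was 0.092 without CerS4epi-/- replicate 2. The Slurp1 cluster held 113 and 121 against 103 and 114 CPM, at -0.07 ± 0.16, and the groups overlapped. The Klk10 level in the CerS4epi-/- mice was below the 141 to 149 CPM of Gstm1 in their own barcodes of 1 to 100 counts.

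Gpx2 in the pooled infundibulum was 9.44 and 7.04 CPM in the controls and 26.1 and 38.8 CPM in the CerS4epi-/- mice, a log2 fold change of 2.02 ± 0.26 with an adjusted p of 0.00067. Most of its counts came from the Klk10 cluster, and that cluster was 170 and 89 cells of 1096 and 830 in the controls but 414 and 452 of 1857 and 1661 in the CerS4epi-/- mice. Within it the log2 fold change was 0.94 ± 0.24 with an adjusted p of 0.017, or 0.118 without control replicate 1, so the mix of clusters enters the pooled value. Without Harmony, and with no genes held out of the clustering, the estimate for the Klk10 cluster turned to -0.50 and -0.18.

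The other calls in the infundibulum were small and close to the threshold. Nqo1 was 6.58 and 5.08 CPM in the controls and 11.9 and 10.1 CPM in the CerS4epi-/- mice, a log2 fold change of 0.98 ± 0.26 with an adjusted p of 0.029. Srxn1 was 6.01 and 4.69 against 9.32 and 10.4 CPM, with an adjusted p of 0.040. Txnrd1 was 10.9 and 10.6 against 15.7 and 17.4 CPM, with an adjusted p of 0.038. None of these groups overlapped, in a class where 58.6% of all genes had groups that did not. Gclm was 21.6 and 19.2 against 26.2 and 30.3 CPM, at 0.53 ± 0.16 and an adjusted p of 0.048. Barcodes without a cell held 5.02 and 4.66 CPM of Nqo1 in the controls and 7.07 and 5.94 CPM in the CerS4epi-/- mice. Srxn1 there was 6.27 and 2.96 against 5.30 and 3.39 CPM, and Txnrd1 94.1 and 109 against 90.7 and 93.3 CPM. Gclm there was 13.8 and 22.0 against 24.5 and 32.2 CPM. The part of free RNA in these 4 calls was not tested. Each of the 4 calls held in only 1 of 4 fits with a mouse left out: all were lost without either control mouse, and each also without 1 of the CerS4epi-/- mice, with adjusted p-values of 0.056 to 0.197. They also depended on the clustering: with Leiden seeds 2 to 5 and at the lower resolution 1 to 3 members passed, Gstm1 each time, and Gpx2 in none of them, at adjusted p-values of 0.080 to 0.18. Taken cluster by cluster, none of these 4 genes passed, and the calls within clusters beside Gstm1 and Gpx2 were Hmox1 in the Klk10 cluster and Aldh3a1 in the Krt79 cluster. Hmox1 in the Klk10 cluster was 39.4 and 45.0 against 57.3 and 85.0 CPM, at an adjusted p of 0.042, which became 0.172 without control replicate 1 and 0.169 without CerS4epi-/- replicate 2. Aldh3a1 in the Krt79 cluster was 127 and 148 against 182 and 201 CPM, at 0.51 ± 0.11 and an adjusted p of 0.017, a call that held in 1 of 4 fits with a mouse left out (largest adjusted p 0.163). Of the members tested, 3 of 8 passed in the Klk10 cluster, against 12.4% of all genes, 2 of 9 in the Krt79 cluster, against 7.35%, and 0 of 6 in the Slurp1 cluster, against 4.61%. In the Slurp1 cluster 1 member, Hmox1, had an unadjusted p under 0.05, and DESeq2 called none.

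**Figure D2:**
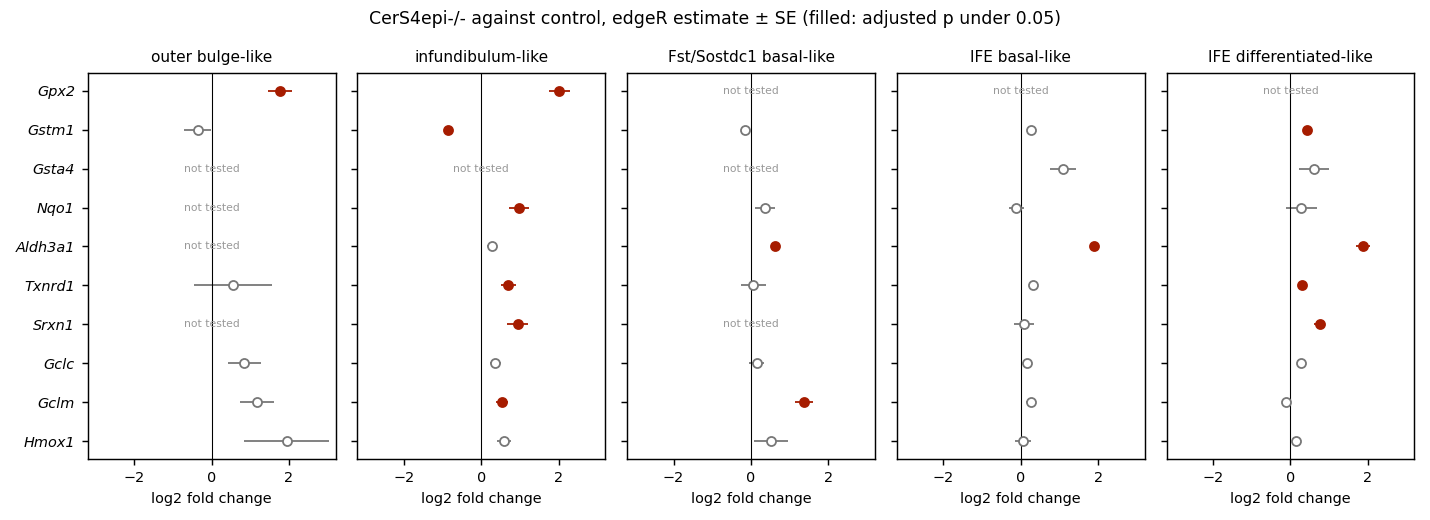
Log2 fold change of each gene in CerS4epi-/- against control mice (horizontal axes, edgeR estimate with its SE as lines) in 5 classes, with filled red points where the adjusted p was under 0.05. The infundibulum panel has the most filled points, 5 to the right and Gstm1 to the left, and Aldh3a1 is filled on the right in the Fst/Sostdc1 basal-like and both IFE panels.

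In the Fst/Sostdc1 basal-like cells Gclm and Aldh3a1 rose, 2 of 7 members tested, against 6.81% of 10232 genes in either direction and 3.48% as higher. Gclm was 24.998 and 30.8 CPM in the controls and 54.7 and 82.1 CPM in the CerS4epi-/- mice. Both CerS4epi-/- values were above both controls, with a log2 fold change of 1.36 ± 0.23 and an adjusted p of 0.0025. Aldh3a1 was 545 and 441 against 703 and 740 CPM, a log2 fold change of 0.62 ± 0.10 with an adjusted p of 0.0019. Both calls held in every clustering, filter and test tried on this cluster, and with any 1 mouse left out. Barcodes without a cell held 13.8 and 22.0 CPM of Gclm in the controls and 24.5 and 32.2 CPM in the CerS4epi-/- mice. The part of free RNA in the Gclm call was not tested. Gclc, the partner of Gclm in the enzyme, was 33.3 and 29.3 against 32.1 and 34.1 CPM, with overlapping groups and an estimate of 0.14 ± 0.19. Gstm1 was 497 and 446 against 396 and 417 CPM, at -0.14 ± 0.09, and did not pass.

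Aldh3a1 had the largest fold change of the members tested in the IFE. In IFE basal-like cells it was 19.7 and 25.1 CPM in the controls and 78.3 and 83.9 CPM in the CerS4epi-/- mice, a log2 fold change of 1.90 ± 0.12 with an adjusted p of 0.00038. It was the only member of 9 tested that passed there, against 3.5% of 13029 genes. The median of the 9 was 0.25, against 0.00 over all genes, and the groups did not overlap for 7 of all 10 members, against 52.2% of genes. In IFE differentiated-like cells it was 6.63 and 8.32 against 30.6 and 22.6 CPM, a log2 fold change of 1.87 ± 0.17 with an adjusted p of 0.00058. Keratinized-like cells held little of it, 1.40 and 2.69 against 7.46 and 5.77 CPM, a log2 fold change of 1.76 with an adjusted p of 0.0064.

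Free RNA moved in the same direction. Barcodes of 1 to 100 counts held 38.9 and 43.6 CPM of Aldh3a1 in the controls and 115 and 126 CPM in the CerS4epi-/- mice. T cell-like cells, which are not keratinocytes, held 10.4 and 7.68 against 17.1 and 22.8 CPM, from 1 to 7 counts a mouse. Thinned to 1200 counts, 2.05% and 3.10% of control and 10.6% and 10.4% of CerS4epi-/- IFE basal-like cells had an Aldh3a1 count, against 0.962% and 0% and 1.44% and 0.709% of T cell-like cells, whose median depth was 1541 to 1904 counts a mouse against 2882 to 3887 in the IFE basal-like cells. The number of Fst counts per Aldh3a1 count was 0.495 to 0.646 in the Fst/Sostdc1 basal-like cells of the 4 mice. It was 0.534 and 0.294 in the controls and 0.238 and 0.366 in the CerS4epi-/- mice in IFE basal-like cells, which overlaps with that range in 1 control mouse. In the non-keratinized differentiated cells it was lower, at 0.0777 to 0.223, and in the keratinized-like cells it was 0.4 to 1.18, from 11 to 62 Aldh3a1 counts. Sostdc1 counts per Aldh3a1 count ranged from 0.807 to 1.42 in the Fst/Sostdc1 basal-like cells and from 1.18 to 2.42 in the IFE basal-like cells. For Igfbp4 the number in the former was 0.249 and 0.110 in the controls and 0.715 and 0.868 in the CerS4epi-/- mice. In the latter it was 0.613 and 0.469 in the controls, above both control values of the former. In the CerS4epi-/- mice it was 0.557 and 0.534 there, below both of theirs. When every IFE cell with a count of Fst, Igfbp4, Sostdc1 or Spock2 was left out, Aldh3a1 stood at 11.5 and 17.7 CPM in control and 50.7 and 52.1 CPM in CerS4epi-/- IFE basal-like cells, a log2 fold change of 1.86 with an adjusted p of 0.00075. The part of free RNA in the difference was not tested.

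**Figure D3:**
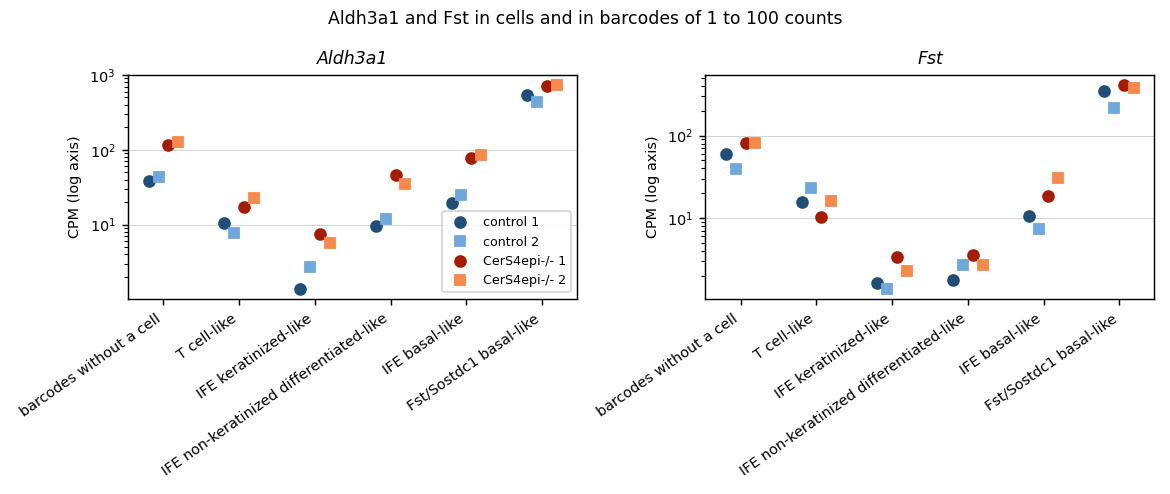
CPM (logarithmic vertical axes) of Aldh3a1 and of Fst, a marker of the Fst/Sostdc1 basal-like cluster, in barcodes of 1 to 100 counts and in 5 cell classes, with 1 point a mouse. Aldh3a1 is higher in the CerS4epi-/- mice in the barcodes without a cell as well as in every class shown. For Aldh3a1, though not for Fst, T cell-like cells lie below the IFE basal-like cells in each mouse.

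The differentiated IFE held further, smaller calls. Of 9 members tested in the IFE differentiated-like cells 4 passed, all higher, against 11.2% of 13713 genes in either direction and 7.07% as higher, with a median log2 fold change of 0.29. Srxn1 was 7.68 and 9.43 CPM in the controls and 13.3 and 15.1 CPM in the CerS4epi-/- mice, a log2 fold change of 0.75 ± 0.14 with an adjusted p of 0.0099. It passed in both portions of the layer, with 5.02 and 6.98 against 10.1 and 14.3 CPM in the non-keratinized and 12.5 and 13.2 against 18.2 and 16.3 CPM in the keratinized-like cells, at adjusted p-values of 0.022 and 0.038. Without CerS4epi-/- replicate 2 the adjusted p for the whole class was 0.092, and the keratinized call held in 1 of 4 fits with a mouse left out (largest adjusted p 0.189). Of 8 members tested in each portion 3 passed, against 6.86% and 14.2% of genes. Gstm1, which fell in the infundibulum, was 26.3 and 22.9 against 32.3 and 32.1 CPM here, a log2 fold change of 0.42 ± 0.09 with an adjusted p of 0.021, which was 0.065 to 0.115 without control replicate 2 or either CerS4epi-/- mouse.

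Txnrd1 had estimates of opposite sign in the layers, and passed in the keratinized one. In the keratinized-like cells it was 272 and 228 CPM in the controls and 310 and 298 CPM in the CerS4epi-/- mice, a log2 fold change of 0.39 ± 0.09 with an adjusted p of 0.018, which rose to 0.098 without control replicate 2. In the non-keratinized cells it was 39.3 and 46.3 against 34.4 and 32.7 CPM, at -0.36 ± 0.11 and an adjusted p of 0.071, which fell to 0.0013 without control replicate 1 and was 0.51 when cells with a count of Fst, Igfbp4, Sostdc1 or Spock2 were left out. The difference between the layers was not tested. Hmox1 in the keratinized-like cells was 358 and 363 against 363 and 366 CPM, with an estimate of 0.12 ± 0.07 that did not pass.

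Stress genes moved alongside in the IFE. The 16 genes of a list of dissociation and immediate-early genes summed to 22290 and 20682 CPM in control and 25023 and 27354 CPM in CerS4epi-/- IFE basal-like cells, and 6 of them passed as higher. In IFE differentiated-like cells 8 passed as higher and 1 as lower, whereas in the pooled infundibulum-like cells 1 passed, as lower. The infundibulum clusters differed: 7 fell in the Klk10 cluster, where the list summed to 20497 and 17918 against 13804 and 10631 CPM, none passed in the Krt79 cluster and 5 rose in the Slurp1 cluster. In the Fst/Sostdc1 basal-like cells 1 rose and 6 fell. Their part in the results was not tested.

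**Figure D4:**
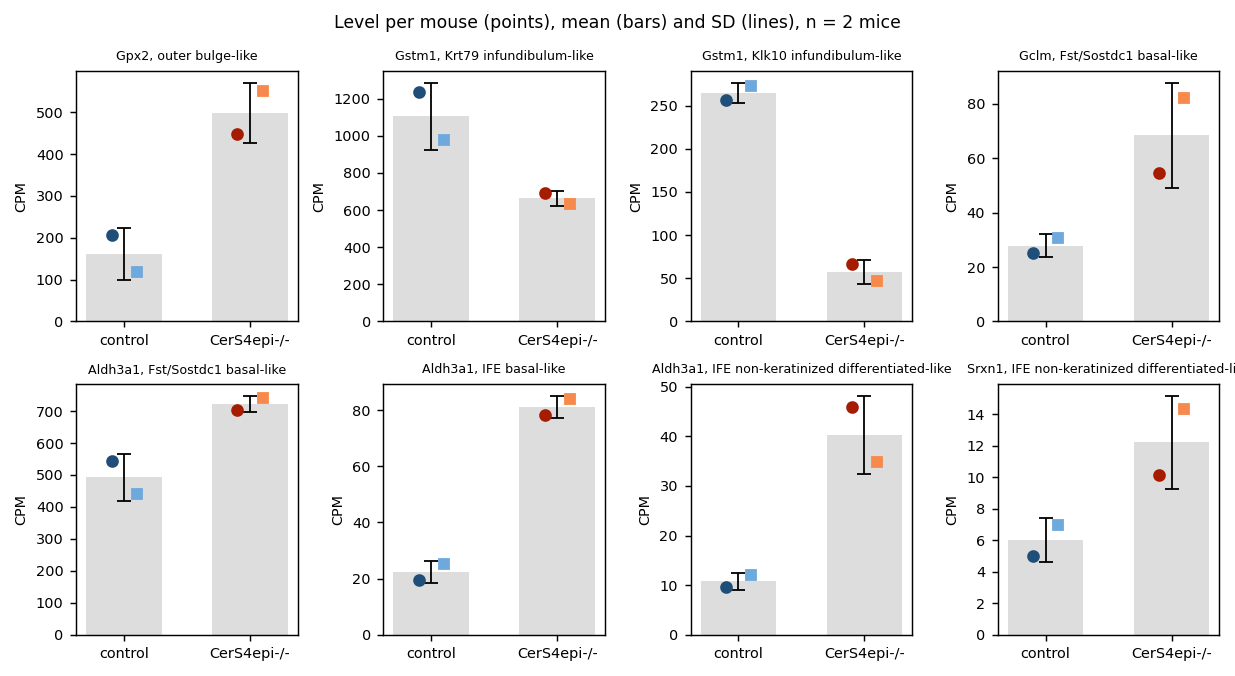
CPM (vertical axes, from 0) of 5 genes in 8 combinations of gene and class, with points for mice, bars for the mean and lines for the SD of 2 mice a genotype. In each panel the 2 genotypes do not overlap: Gstm1 is lower in the CerS4epi-/- mice in both infundibulum clusters, and the other panels are higher.

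Whether an effect of genotype differed between classes was tested with the class-by-genotype term, with the mouse as a term. Between the infundibulum-like and the IFE basal-like cells 3 of 10 members differed, against 5.99% of 13416 genes. The effect on Gstm1 was 1.13 log2 units lower in the infundibulum (SE 0.12, adjusted p 7.1e-06), and that on Aldh3a1 1.65 units lower (SE 0.13, adjusted p 2.3e-07). For Nqo1 it was 1.11 units higher (SE 0.30, adjusted p 0.034). Gpx2, called in the infundibulum but not tested in the IFE basal-like cells, differed by -0.30 ± 0.56 with an adjusted p of 0.85. The bulge-like class, outer and inner summed, was of unlike make-up: outer bulge-like cells were 33 of 103 and 27 of 87 in the controls and 185 of 219 and 208 of 244 in the CerS4epi-/- mice. Between it and the IFE basal-like cells 1 of 9 members differed, against 5.21% of 12672 genes: Gclm, by 1.06 ± 0.33 with an adjusted p of 0.032, which was 0.129 to 0.362 without either control mouse or CerS4epi-/- replicate 1. For Nqo1 the adjusted p was 0.251 and 0.244 without a control mouse and 0.074 without CerS4epi-/- replicate 1, while the differences for Gstm1 and Aldh3a1 passed with any mouse left out.

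T cell-like and Langerhans cell-like cells, in which keratin-14-Cre should not act, gave no call among the 2 and 1 members that could be tested, against 0.112% and 0.127% of genes. The T cell-like cells numbered 65 to 144 a mouse, and only Gstm1 and Gclc had enough counts for a test, both with an unadjusted p above 0.05. DESeq2 called no member in either class. Gstm1 was 183 and 138 against 130 and 137 CPM, with an estimate of -0.30 ± 0.28. Over all kept cells 5 of 10 members passed, all higher, against 14.3% of 16034 genes in either direction and 8.2% as higher. These sums follow the shares of the classes as well as the levels within them: Gpx2, at 3.51 log2 units, rose with a number of outer bulge-like cells that went from 33 and 27 to 185 and 208.

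Beyond the 10 genes, 128 genes of the same pathways were followed in 9 lists. In the infundibulum-like cells 18 rose and 9 fell of 105 tested, or 25.7% against 14.2% of all genes. In the IFE basal-like cells the numbers were 5 and 2 of 112, in the IFE differentiated-like cells 13 and 4 of 111, in the Fst/Sostdc1 basal-like cells 6 and 6 of 96, and in the outer bulge-like cells 1 and 1 of 73, and the shares of 6.25%, 15.3%, 12.5% and 2.74% stand beside 3.5%, 11.2%, 6.81% and 2.37% of all genes. The median log2 fold change over the lists was 0.02, 0.02, 0.02, 0.01 and 0.11 in the order given. The genes did not move one way.

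Mgst1, a membrane-bound glutathione transferase that also reduces lipid peroxides, rose in all 5 of these classes. In the outer bulge-like cells it was 63.4 and 50.5 CPM in the controls, from 7 counts, and 385 and 235 CPM in the CerS4epi-/- mice, a log2 fold change of 2.58 ± 0.48 with an adjusted p of 0.017, a call that held in 2 of 4 fits with a mouse left out (largest adjusted p 0.083). In the infundibulum-like cells it was 28.6 and 18.4 against 81.8 and 90.7 CPM, and in the Fst/Sostdc1 basal-like cells 45.5 and 30.9 against 101 and 125 CPM. IFE basal-like cells held 5.04 and 7.69 against 14.98 and 17.6 CPM. Mgst1 was also among the 10 leading genes of the sebaceous gland-like cluster. That cluster had 12 and 2 cells in the controls and 27 and 34 in the CerS4epi-/- mice. The part of free RNA in the Mgst1 results was not tested. Of all genes compared, Mgst1 was also the one whose pattern over classes and mice was most like that of Nqo1, with a Pearson correlation of 0.91 over 44 sums that share libraries and depth.

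Among the enzymes that consume or carry glutathione, Mgst2 and Gsto1 rose in both IFE classes, the latter from 150 and 147 to 192 and 192 CPM in the basal cells. With 1 mouse left out at a time, the call of Gsto1 in the basal cells held in 2 of 4 fits and that of Mgst2 in the differentiated cells in 1 of 4. Gstm6 and Gsta1 fell in the infundibulum, as did Sod3, the extracellular superoxide dismutase, and Cat, catalase, from 101 and 108 to 71.4 and 59.1 CPM. No infundibulum cluster taken alone gave a call of Gsta1 or Sod3. The call of Gsta1 was lost with any mouse left out, and those of Gstm6 and Sod3 each with 1 of the 4. Gpx4, which reduces lipid hydroperoxides in membranes, rose there from 55.5 and 40.6 to 93.4 and 104 CPM, a log2 fold change of 1.10 ± 0.14 with an adjusted p of 0.00066. Txnip, which binds and inhibits thioredoxin, rose in the infundibulum, the Fst/Sostdc1 basal and the differentiated IFE cells and fell in the inner bulge, there from 1381 and 1456 to 739 and 593 CPM, a call that held in 2 of 4 fits with a mouse left out.

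The genes that supply NADPH were divided in the infundibulum, where Idh1 and G6pdx rose and Me1, malic enzyme, fell from 309 and 344 to 221 and 216 CPM. Fth1, the heavy chain of the iron store ferritin, fell in the outer bulge, from 602 and 656 to 268 and 180 CPM, in the infundibulum and in the Fst/Sostdc1 basal-like cells. Slc40a1, the iron exporter, rose in the infundibulum from 76.4 and 64.5 to 134 and 167 CPM. That call held in 11 of 15 other settings, with a lowest log2 fold change of 0.02 in any fit. By cluster, G6pdx, Fth1 and Slc40a1 passed in the Klk10 cluster and not in the Krt79 or Slurp1 cluster. The clusters had unlike shares in the genotypes, and the part of this mix in the infundibulum calls of the list genes was not tested. With a mouse left out the Fth1 call held in 2 of 4 fits in the outer bulge, in 3 in the infundibulum and in all 4 in the Fst/Sostdc1 basal-like cells. Aldh3b2, an aldehyde dehydrogenase of lipid droplets and membranes, was called in opposite directions: higher in the infundibulum at 1.46 ± 0.11, lower in the Fst/Sostdc1 basal-like cells at -1.58 ± 0.23 and lower in the IFE basal-like cells at -0.47 ± 0.10, the last of which held in only 1 of 4 fits with a mouse left out. The infundibulum minus IFE basal-like difference was 1.93 ± 0.15 with an adjusted p of 1.7e-07, and the Fst/Sostdc1 basal-like cells were not tested against either. Cyp2s1, a target of the aryl hydrocarbon receptor, rose in the infundibulum and the Fst/Sostdc1 basal-like cells, from under 11 CPM, and the infundibulum call held in 1 of 4 such fits.

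Of the 13 genes of the sensor itself, Nfe2l2, which encodes NRF2, and Keap1 passed in none of the 5 classes. Nfe2l2 in IFE basal-like cells was 68.1 and 68.0 CPM in the controls and 63.3 and 66.8 CPM in the CerS4epi-/- mice, and Keap1 was 71.4 and 69.6 against 67.8 and 65.2 CPM. Cul3 and Nfe2l1 rose in the infundibulum, by log2 fold changes of 0.50 and 0.47, each lost in 1 of 4 fits with a mouse left out, and Cul3, Bach2 and Maff in the differentiated IFE, where the calls held in 3, 2 and 4 of 4 such fits. Trp63 fell in the Fst/Sostdc1 basal-like cells, from 413 and 444 to 307 and 283 CPM, in all 4. NRF2 is controlled mainly as a protein, which counts of RNA do not measure.

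**Figure D5:**
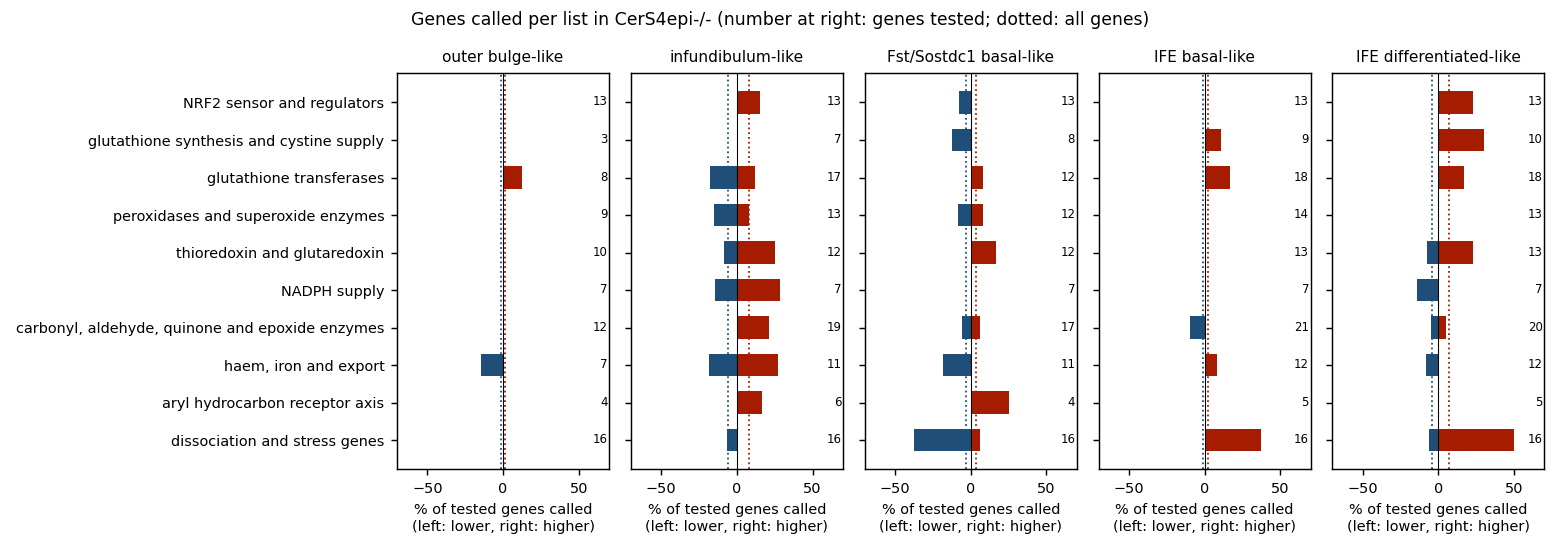
Percent of the tested genes of each of 9 pathway lists and of a stress list that were called higher (red, right) or lower (blue, left) in CerS4epi-/- mice in 5 classes, with the number of genes tested at the right edge and dotted lines at the percent over all genes. Bars reach past the dotted lines on both sides in the infundibulum, and the stress list is called mostly higher in the IFE classes and mostly lower in the Fst/Sostdc1 basal-like cells.

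For the 10 genes the genes most like each were sought among 6617 genes, by the Pearson correlation of log2(CPM + 1) over the 44 sums of class and mouse, without the gland and its few cells. Gpx2 was closest to Krt6a (0.93), Lhx2 (0.92) and Shisa2 (0.90), the first a marker of the inner bulge and the second of the outer bulge. Gstm1 was closest to Sult5a1 (0.89) and then to its neighbour Gstm2 (0.88), and Aldh3a1 also to Sult5a1 (0.82). The genes nearest to Gsta4 were Cx3cr1, Cd3e and Il2rb, all expressed by T cells, at 0.73 to 0.77, though the gland, where Gsta4 was highest, is not among the sums. Gclc was nearest to Crot (0.89), Hmox1 to Ube2r2 (0.86), Txnrd1 to Asah1 (0.83) and Srxn1 to Chmp2b (0.73). Among pairs of the 10 genes, Gstm1 and Aldh3a1 followed Gclc and Gclm at 0.76, and Txnrd1 and Gclc were the most opposed, at -0.54.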

How the data were processed

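Single-cell whole-transcriptome libraries (BD Rhapsody) from 4 mice were processed by the authors with fastp 0.23.2 and STAR 2.7.10a in its single-cell mode, which shares reads that map to several places between them by expectation maximization. The deposited values are therefore expected counts per gene and barcode (GRCm39), with no normalization. Barcodes below 1200 counts, or with over 20% of their counts mitochondrial, were dropped (34150 cells left). Counts were scaled with scran 1.30.0, batch-corrected with an own implementation of Harmony and clustered with scanpy 1.11.5 (Leiden), with the 10 genes and the genes of their pathway held out. The study's resolution of 0.8 joined the bulge with part of the infundibulum, so a resolution of 1.2 was used, a choice made after the clusters were seen, as was keeping the Fst/Sostdc1 basal-like cluster apart. A doublet caller marked 2 cells and was judged not to have worked, so doublets were not removed. Counts were summed per mouse and class, rounded to whole numbers and tested with edgeR 4.0.16 (quasi-likelihood, TMM, genes with low counts filtered), with a class needing at least 20 cells in each mouse and an adjusted p under 0.05 (Benjamini-Hochberg) called. DESeq2 1.42.0 was an alternative. Mice were the replicates, 2 for each genotype, and with so few an exact permutation test could not go below 0.333. Named list genes are at most the 3 of largest change per list and class among those called, beside Nfe2l2 and Keap1, which were added after their values were seen. The members and lists were chosen with earlier results of these data known. The test was checked on simulated counts. The gene closest to Gclm in pattern is not reported here.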

Additional observations from a re-analysis of the deposited data

Results flagged for a closer look

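Gene effects that differed between classes, by the class-by-genotype term in edgeR, were those of 4 members. For Gclm the log2 fold change in CerS4epi-/- against control mice was 1.06 higher in the bulge-like than in the IFE basal-like cells. The bulge-like class sums clusters of unlike share, with outer bulge-like cells 33 of 103 and 27 of 87 in the controls and 185 of 219 and 208 of 244 in the CerS4epi-/- mice, and Gclm passed in neither the outer (adjusted p 0.23) nor the inner bulge-like cells (0.70) alone. For Aldh3a1 the infundibulum-like minus IFE basal-like difference was -1.65, for Gstm1 it was -1.13 and for Nqo1 it was 1.11. The Gclm difference passed in 3 of 14 other settings.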

How the results depend on the processing

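Results for the members were recomputed with each mouse left out and with other normalizations, filters, clusterings and cell filters. Of fits with a called value, 106 kept the call and 50 lost it when a mouse was left out, and under the other settings 421 kept it, 96 lost it and 10 turned in sign. Of fits with a value not called, 13 and 80 became called. The outer bulge-like cells gave 1 call, against 4, 2, 2 and 3 with Leiden seeds 2 to 5, 5 at a resolution of 0.8, 3 with no genes held out, 3 by marker gates and 0 to 1 with a mouse left out. The inner bulge-like cells gave 0 calls, against 1 by marker gates and 0 to 1 with a mouse left out. The infundibulum-like cells gave 6 calls, against 2 by DESeq2, 2, 1, 2 and 1 with the seeds, 3 at 0.8, 1 without Harmony, 1 with no genes held out, 3 by marker gates and 2 to 7 with a mouse left out. The IFE basal-like cells gave 1 call, against 2 without the low-count filter, 2 with each of the seeds and 1 to 2 with a mouse left out. With a mouse left out the calls ranged from 1 to 5 in the IFE differentiated-like cells, where there were 4, from 2 to 6 over all kept cells, where there were 5, and from 2 to 3 for the infundibulum difference. The bulge difference gave 1 call, against 0 by DESeq2, without the low-count filter, with seed 2, without the highest doublet scores and at 10% mitochondrial counts, 2 with seed 4 and by marker gates, 3 at 0.8 and 0 to 1 with a mouse left out. The highest class stayed for 9 to 10 of the 10 members with a mouse left out. The cause of these changes was not tested.

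Some estimates turned in sign. Gstm1 in the summed bulge-like cells was 0.89, against -0.10, -0.13, -0.19 and -0.14 with seeds 2 to 5, -1.06 at 0.8, -0.21 with no genes held out, -0.44 by marker gates and -0.16 at 10% mitochondrial counts, and its difference from the IFE basal-like cells was 0.66, against -1.26 at 0.8. Gpx2 in the Klk10 cluster was 0.94, against -0.50 without Harmony and -0.18 with no genes held out.

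The replicate numbers of the mice do not pair them: deviations of mice with the same number correlated at -0.06 to 0.13. With the number as a block the members called were 2 in the IFE basal-like cells, 4 in the infundibulum-like, 5 in the IFE differentiated-like and 6 over all kept cells.

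Over all genes the calls in IFE basal-like cells were 456, against 1449 with the block and 1427 without the low-count filter, with 66.0%, 56.9% and 55.5% of them higher. In IFE differentiated-like cells they were 1542, against 3053 with the block, 2498 without the filter and 1022 by DESeq2, and in infundibulum-like cells 1631, against 777 by DESeq2 and 1025 at 0.8. Outer bulge-like cells gave 142, against 285 with the block, 344 without the filter, 1302 with seed 2 and 1538 at 0.8, Fst/Sostdc1 basal-like cells 697, against 253 by DESeq2 and 1089 without the filter, and inner bulge-like cells 43, against 6 by DESeq2 and 76 with the block. Without the filter the median of all genes in the outer bulge-like cells moved to 0.71. Depth limits the bulge and gland most: the outer bulge-like controls were 33 and 27 cells and the gland controls 12 and 2. The gland gave no value at 10% mitochondrial counts, since it was not present in all 4 mice.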
